A study of Mus musculus with 18 samples.

Results

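The 10 genes described here are 5 cytokines (TNF, IL1B, IL6, IFNG and IL18), 3 chemokines (CCL3, CCL4 and CXCL2) and 2 adhesion receptors (ICAM1 and VCAM1), taken by name from a table of read counts for 15644 genes and 1146 transposable elements (TEs, repeat subfamilies to which reads from many genomic copies are assigned). All 10 were in the table. The counts came from hippocampus RNA of 18 C57/B6 mice: 6 younger controls of 9 months, 6 older controls of 20 months and 6 older mice of 20 months that drank water with 2 mg/mL 3TC for 6 weeks. 3TC (lamivudine) is a nucleoside analog that blocks reverse transcriptase, and each group held 3 males and 3 females. The labels give no transgene or deletion, and every sample was whole tissue from a different mouse, so fewer cells of a type and less RNA per cell cannot be told apart. The question was whether these genes differed with age and with 3TC, and whether their counts stood above those of genes that the hippocampus does not use.

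TNF and IL-1β are early messengers of innate immunity, made in the brain mainly by microglia, and they act through NF-κB on neighboring cells. IL-6 follows them and signals through STAT3, IFN-γ comes mostly from T and NK cells, and IL-18 is matured by caspase-1 in the inflammasome, as IL-1β is. CCL3 and CCL4 attract monocytes and T cells, CXCL2 attracts neutrophils through CXCR2, and ICAM-1 and VCAM-1 on endothelium hold leukocytes through their integrins. In a resting brain most of these messages are scarce, which makes the background of the assay part of any reading of them.

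Total counts were 34.6 to 49.1 M per mouse, of which 6.01 to 13.04 M fell in genes and 63.4% to 85.7% in TEs. The Y-linked gene DDX3Y had at least 457 counts in each male and 0 in each female, as labeled. The methods describe total RNA with ribosomal RNA removed, whereas the labels name polyA RNA. Hippocampal neuron and microglia markers were present, with 6 of 12 and 5 of 15 above the limit for silent genes described next in all 18 mice. A few mice stood at the ends of the TE share in their groups, namely YM1 (younger, 63.4%), CMO6 (older, 68.3%) and DFO5 (3TC, 65.9%) at the low end and YF3 (younger, 83.6%), CFO2 (older, 85.7%) and DMO5 (3TC, 85.1%) at the high end.

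Per kb of annotated exon, most of the 10 genes were counted no more densely than genes restricted to other tissues, but per kb of coding sequence most were. Counts per gene ran from 15 to 507 in single mice, and counts per kb of annotated exon, which allow genes to be compared, averaged 112 ± 24.1 (SD, n = 18) for IL18, 49.3 ± 16.1 for CCL3, 44.3 ± 11.7 for CCL4, 43.6 ± 9.61 for TNF, 35.3 ± 8.75 for VCAM1 and 34.8 ± 10.1 for IL1B. ICAM1 followed at 34.0 ± 5.45, IFNG at 32.1 ± 7.34, CXCL2 at 19.9 ± 5.45 and IL6 at 13.7 ± 4.07. Neighbors in this order from CCL3 to IFNG differed by less than 1 SD. IL18 lay at the 72nd percentile of the genes in the table, CCL3 at the 35.2nd, CXCL2 at the 3.51st and IL6 at the 1.05th. The table held 9 genes with a mean of 10 counts or fewer, so these are ranks among genes that nearly all had counts. The 75 tissue-restricted genes were listed as genes of organs other than the brain and include the insulin gene INS1 and the milk protein gene CSN2. They had a median of 41.8 counts per kb and a 95th percentile of 85.9. Their means ran from 5.4 for CSN2 to 155.7 for APOA2, with LCT at 94.5 and ALB at 92.8, so a few genes set the upper limit. Of the 75, 1 was above that limit in all mice. Whether each listed gene is silent in hippocampus was not tested. None of the 1350 values of these silent genes was 0, and the lowest was 10 counts. Against the 95th percentile of this list in the same mouse, IL18 was above in 14 of 18 mice, VCAM1 in 1 mouse and each of the other 8 genes in 0 mice. The share of all genes above this limit was not counted, so these counts and those of the marker lists have no background beside them. IL6 exceeded 5 of the 75 silent genes on average, CXCL2 7, IFNG 21, ICAM1 24, IL1B 25, VCAM1 28, TNF 42, CCL4 43, CCL3 50 and IL18 74.

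**Figure D1:**
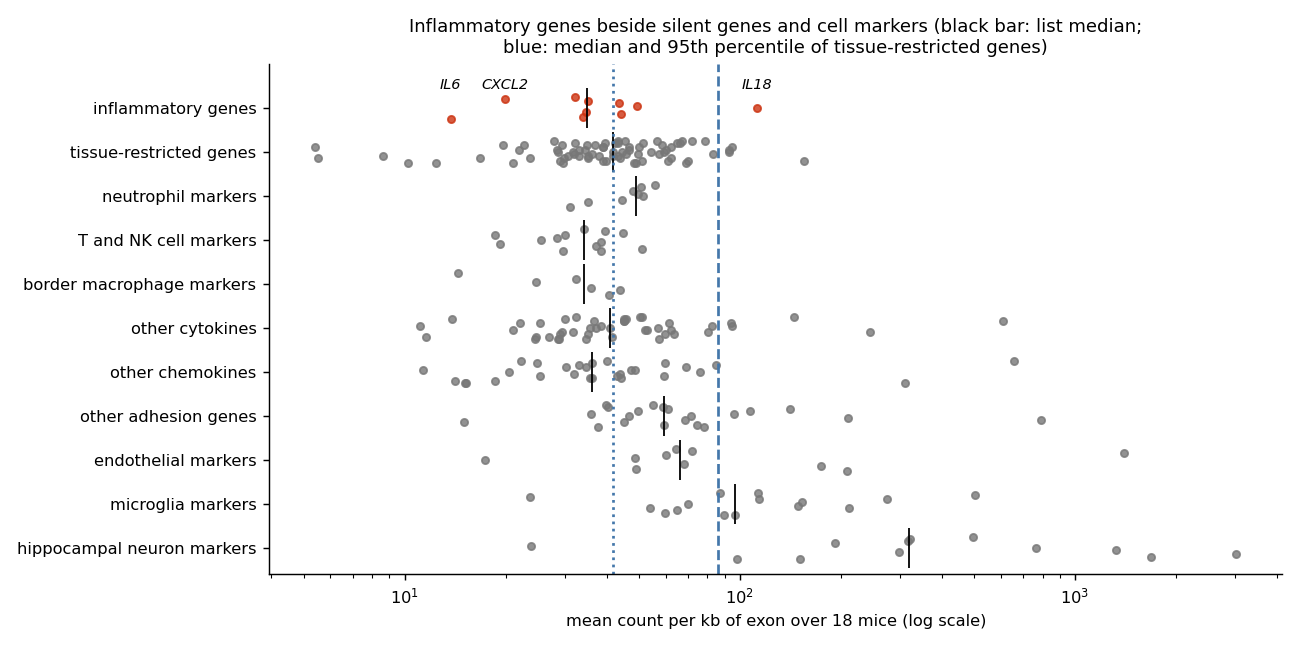
Mean count per kb of exon over 18 mice, on a log axis, for each of the 10 inflammatory genes (red) and for genes of 10 comparison lists (gray), with list medians as black bars and the median (41.8, dotted) and 95th percentile (85.9, dashed) of the tissue-restricted genes as blue lines. Of the 10 genes, IL18 is the one to the right of the dashed line, and IL6 and CXCL2 lie farthest to the left.

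The reference and the length decided part of this count. The reference chosen first was sensory receptor genes, of which 5 trace amine receptor genes were in the table, with a 95th percentile of 31.3 counts per kb. Above it were IL18 in 18 mice, TNF in 17, CCL4 in 16, CCL3 in 15, IL1B, ICAM1 and VCAM1 in 10 each, IFNG in 6 and IL6 and CXCL2 in 0. With 42 keratin-associated protein genes of hair, IL18 was above the 95th percentile in 18 mice, CCL3 in 12, TNF and CCL4 in 5 each, VCAM1 in 3, IFNG in 1 and the other 4 genes in 0. Per kb of coding sequence in place of exon, IL18 was above the tissue-restricted limit in 15 mice, CCL3 in 9, CXCL2 and VCAM1 in 8 each, CCL4 in 1 and the other 5 genes in 0. On that scale IL18 exceeded 74 of the 75 tissue-restricted genes on average, and CCL3, CXCL2 and VCAM1 72 each. CCL4 exceeded 60, TNF 58, ICAM1 52, IFNG 51, IL1B 42 and IL6 4. Per coding kb and against the trace amine receptor genes, the 9 genes other than IL6 were above in all 18 mice and IL6 in 15. The median of these receptor genes was 29.8 per exon kb and 29.9 per coding kb, against 41.8 and 77.3 for the tissue-restricted genes. This reading thus raised the 10 genes and left their reference nearly unchanged. CXCL2 shifted most in level, from 19.9 to 137 counts per kb, since its annotated exons cover all 2068 bases of the gene and its coding sequence 301. Per coding kb CXCL2 was at the 39.3rd percentile of the genes in the table and IL18 at the 52.8th. The annotation that the authors counted against was not given in the sources used here. IL18 was above the limit in 14 or more mice under each of these 5 readings, IL6 in 0 mice under 4 of them, and the other 8 genes depended on the choice.

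By the same measure, markers of cells that make or receive these signals fell on both sides of the limit. Of 8 neutrophil markers and 13 T and NK cell markers, 0 were above the tissue-restricted limit in all mice, and their medians were 48.8 and 34.3 counts per kb. CD3E, a subunit of the T cell receptor complex, had 18.6 counts per kb and MPO, the peroxidase of neutrophil granules, 50.7. The 15 microglia markers had a median of 96.5 counts per kb, with P2RY12, a purine receptor of resting microglia, at 114. TREM2, a lipid receptor, P2RY13, GPR34, AIF1 and SALL1 had means between 23.6 and 70.1, under the 95th percentile of 85.9 for means. Mouse by mouse, 5 of the 15 were above the limit in all mice and 1 in no mouse. Some other cytokines and chemokines stood far above the silent genes, with 3 of 45 cytokines and 2 of 29 chemokines over the limit in all mice. How many of all genes were over it in all mice was not counted. MIF had 610, IL33 245 and CX3CL1, the fractalkine that neurons present to microglia, 658 counts per kb. Among 21 other adhesion genes, ICAM5, an adhesion molecule of forebrain neurons, had 789 counts per kb and 2 genes were over the limit in all mice.

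From mouse to mouse, 8 of the 10 genes rose and fell with the silent genes. For each gene, log2 CPM (CPM being counts scaled to library size with TMM factors, with a prior count of 2) was correlated with the mean log2 CPM of the 5 trace amine receptor genes across the 18 mice, and p-values from 100000 permutations were adjusted over all 16774 genes and TEs tested. Adjusted p was under 0.05 with a positive r for TNF, IL1B, IL6, IFNG, CCL3, CCL4, CXCL2 and ICAM1, and with a negative r for VCAM1. Such calls were common, with 76.7% of all genes and TEs called and 41.6% called with a positive r. The 9 calls among 10 genes were thus near the background. A positive r was called for 8 of them, above that share, but the excess was not tested, and these genes are not independent over the same 18 mice. Of the 75 tissue-restricted genes, 70 were also called with a positive r to the trace amine receptor genes. IL1B had r = 0.889 (permutation p = 1e-05, which is the lower limit of this test, adjusted p = 5.14e-05) and rho = 0.843 (permutation p = 8.0e-05, adjusted p = 0.000336), with r = 0.802 once YM1 and DFO5, the 2 mice with the most distant silent gene levels, were left out. Without those mice r for the other 7 genes ran from 0.474 (CCL3) to 0.755 (IFNG). IL18 had r = -0.014 (permutation p = 0.956, adjusted p = 0.961) and rho = 0.051 (permutation p = 0.844), and VCAM1 r = -0.506 (permutation p = 0.0322, adjusted p = 0.0426) and rho = -0.515 (permutation p = 0.0301). Within the groups r of the 8 genes was above 0.5 except for ICAM1 in younger mice (0.272) and CCL3 in 3TC-treated mice (0.499). With CPM of gene counts alone, against 73.2% of 15635 genes called and 40% called with a positive r, the 8 genes were again called with a positive r, while VCAM1 was not called by r (-0.454, adjusted p = 0.0765, permutation) and was by rho (-0.515, adjusted p = 0.042, permutation).

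With the 75 tissue-restricted genes as the reference the same 8 genes were called with a positive r and VCAM1 with a negative one, against 79.2% of all genes and TEs called and 43.2% called with a positive r. Here r was 0.919 for IL1B, 0.876 for TNF, 0.845 for IL6, 0.836 for IFNG, 0.796 for CXCL2, 0.790 for CCL4, 0.768 for ICAM1 and 0.689 for CCL3, and each was above 0.5 within younger, within older and within 3TC-treated mice. By rank CCL3 was not called (rho = 0.478, adjusted p = 0.0602, permutation), and the other 7 genes and VCAM1 were. For IL18 r was 0.389, 0.393 and -0.869 within these groups, DFO5 having the highest IL18 of the 3TC-treated mice. VCAM1 had r = -0.551, with -0.836, -0.720 and -0.178 within the groups. With each mouse's level of the silent genes subtracted, the SD over 18 mice of log2 CPM went from 0.52 to 0.24 for IL1B and from 0.41 to 0.20 for TNF, but from 0.23 to 0.44 for IL18 and from 0.24 to 0.53 for VCAM1. For CCL3 it went from 0.502 to 0.365 and for ICAM1 from 0.286 to 0.234. These changes follow largely from the r values and are no separate result.

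**Figure D2:**
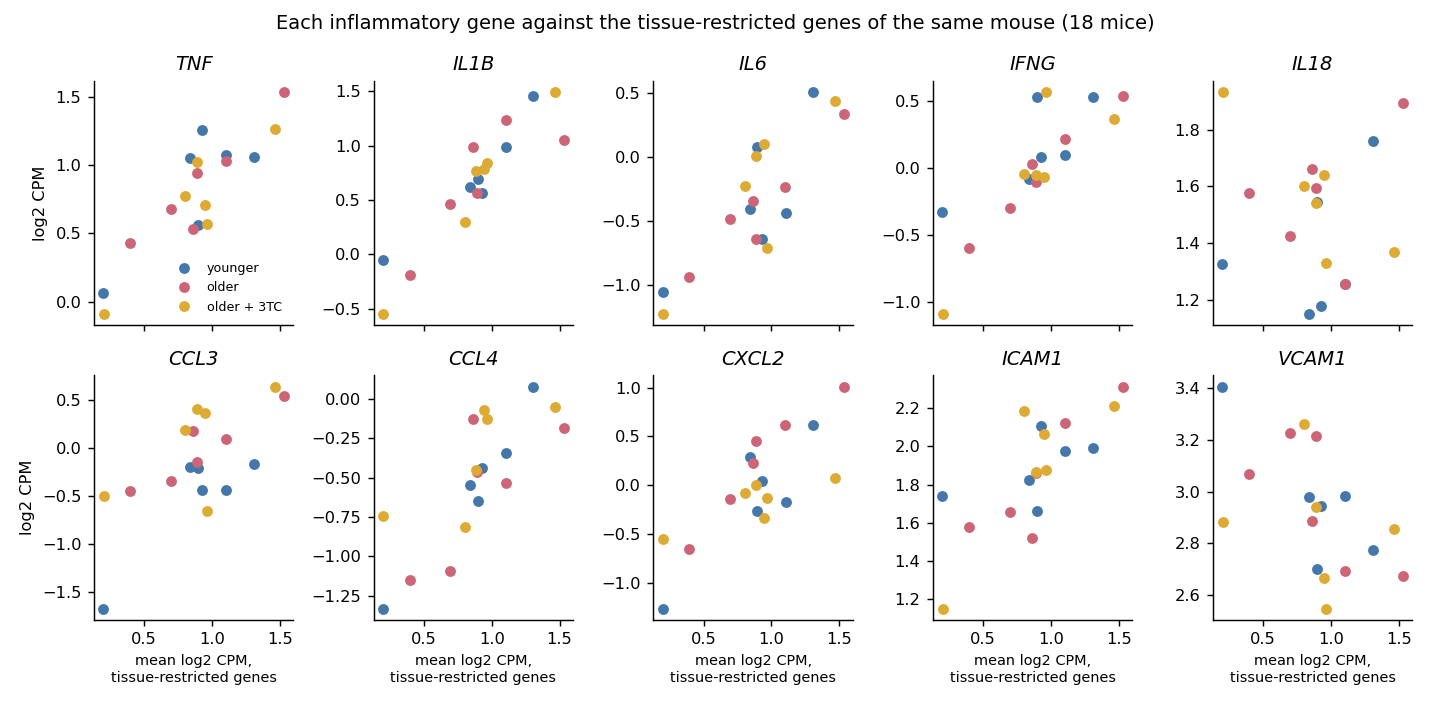
Log2 CPM of each inflammatory gene (vertical axis) against the mean log2 CPM of 75 tissue-restricted genes in the same mouse (horizontal axis), 1 point a mouse, colored by group. In 8 panels the points of all groups climb together (r from 0.689 to 0.919), in the IL18 panel they do not (r = -0.023) and in the VCAM1 panel they descend (r = -0.551).

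The share of counts in TEs moved with both. It had r = 0.985 with the tissue-restricted genes across 18 mice (permutation p = 1e-05, again the lower limit) and rho = 0.938 (permutation p = 1e-05), and r = 0.977 without YM1 and DFO5. Within younger, older and 3TC-treated mice r was 0.991, 0.983 and 0.995. Among the 10 genes, 8 were called with a positive r to the TE share and VCAM1 with a negative one (r = -0.597, adjusted p = 0.0126), against 78.5% of all genes and TEs called and 42.6% called with a positive r. IL1B had r = 0.930 and rho = 0.955 (adjusted p = 3.5e-05 and 6.08e-05, permutation). CPM has TE counts in its denominator. With CPM of gene counts alone, a check added after seeing the data, the same 8 genes were called with a positive r to the TE share and VCAM1 with a negative one (r = -0.525, adjusted p = 0.0343), against 75.4% of 15635 genes called and 41.5% called with a positive r. The part of the TE share in the counts of these genes was not tested beyond this.

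**Figure D3:**
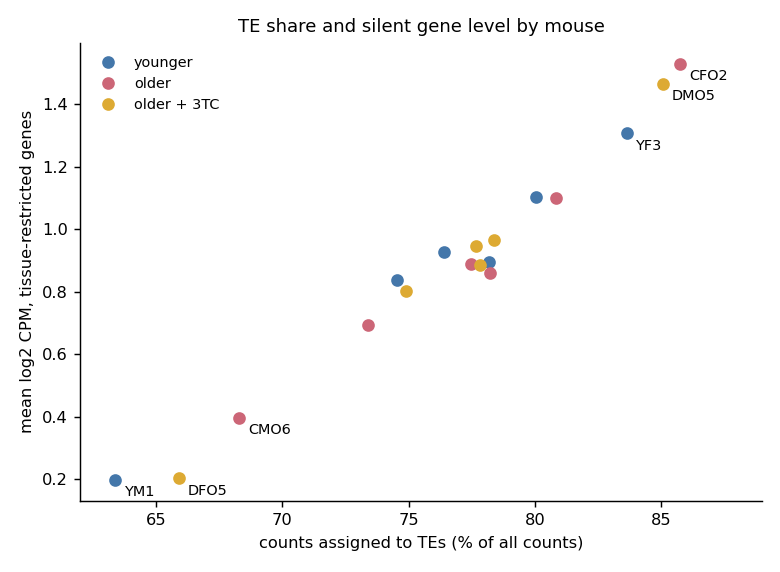
Mean log2 CPM of 75 tissue-restricted genes (vertical axis) against the percent of all counts assigned to TEs (horizontal axis), 1 point a mouse, colored by group, with 6 mice named. The points form 1 band (r = 0.985) in which YM1, DFO5 and CMO6 lie at the low end and YF3, DMO5 and CFO2 at the high end, so that each group spans nearly the whole range.

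None of the 5 cytokines differed between groups by more than the spread between mice. In CPM, the lowest, median and highest younger mice had 1.05, 2.08 and 2.38 for TNF, against 1.35, 1.76 and 2.90 in older and 0.939, 1.67 and 2.40 in 3TC-treated mice. IL1B had 0.962, 1.57 and 2.75 CPM in younger, 0.876, 1.73 and 2.35 in older and 0.683, 1.71 and 2.81 in 3TC-treated mice. IL6 had 0.481, 0.746 and 1.42 CPM in younger, 0.520, 0.750 and 1.26 in older and 0.427, 0.929 and 1.35 in 3TC-treated mice. For these 3 genes the lowest mice were YM1, CMO6 and DFO5, the mice with the lowest silent genes in their groups, and all groups overlapped. IFNG had 0.794, 1.06 and 1.45 CPM in younger, 0.662, 0.975 and 1.45 in older and 0.469, 0.967 and 1.48 in 3TC-treated mice. IL18 had 2.22, 2.45 and 3.39 CPM in younger, 2.38, 3.00 and 3.71 in older and 2.52, 2.97 and 3.82 in 3TC-treated mice. It was the cytokine with the smallest p in older against younger mice, with a log2 fold change of 0.20 (standard error 0.14, 95% confidence interval -0.10 to 0.49, adjusted p = 1 from edgeR), and 5 of 6 older mice lay above the younger median. The share of all genes and TEs with as many was not counted.

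Of the chemokines, CCL3 had the smallest p of the 10 genes with age and CXCL2 with 3TC, and neither passed the test. CCL3 had 0.314, 0.800 and 0.890 CPM in the lowest, median and highest younger mice, 0.734, 0.984 and 1.45 in older and 0.635, 1.21 and 1.55 in 3TC-treated mice. Of the 6 older mice, 4 were above every younger mouse, as were 4 of the 6 treated mice. How many of all genes and TEs were split like CCL3 was not counted. The log2 fold change was 0.46 in older against younger mice (standard error 0.27, 95% confidence interval -0.11 to 1.03, adjusted p = 1, edgeR), and without YM1, the lowest younger mouse, it was 0.29. In 3TC-treated against younger mice it was 0.59 (interval 0.03 to 1.15, adjusted p = 1, edgeR). These comparisons share the younger mice. CXCL2 had 0.418, 0.961 and 1.53 CPM in younger, 0.639, 1.27 and 2.01 in older and 0.683, 0.932 and 1.05 in 3TC-treated mice, none of the treated mice reaching the older median. How many features were placed like CXCL2 was not counted either. Its log2 fold change was 0.36 in older against younger mice (interval -0.22 to 0.93) and -0.49 in 3TC-treated against older mice (interval -1.06 to 0.09), with adjusted p = 1 for both from edgeR. Leaving out CFO2, the highest older mouse, gave 0.18 and -0.31. CCL4, the neighbor of CCL3 13228 bases away on chromosome 11 of mm10, had 0.397, 0.711 and 1.06 CPM in younger, 0.450, 0.708 and 0.914 in older and 0.569, 0.825 and 0.967 in 3TC-treated mice, with no group apart. Its log2 fold change with age was -0.05 (interval -0.59 to 0.48).

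Neither adhesion receptor passed the test, and their intervals with age were among the 3 narrowest of the 10 genes. ICAM1 had 3.17, 3.74 and 4.30 CPM in younger, 2.87, 3.39 and 4.97 in older and 2.22, 3.93 and 4.63 in 3TC-treated mice, with a log2 fold change of -0.03 with age (interval -0.37 to 0.32) and 0.06 with 3TC (interval -0.28 to 0.41). VCAM1 had 6.50, 7.79 and 10.6 CPM in younger, 6.39, 7.89 and 9.36 in older and 5.85, 7.31 and 9.60 in 3TC-treated mice, with -0.01 with age (interval -0.29 to 0.28) and -0.10 with 3TC (interval -0.38 to 0.18). VCAM1 was highest in YM1 among younger and lowest in CFO2 among older mice, the mice with the lowest and the highest tissue-restricted genes in those groups.

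**Figure D4:**
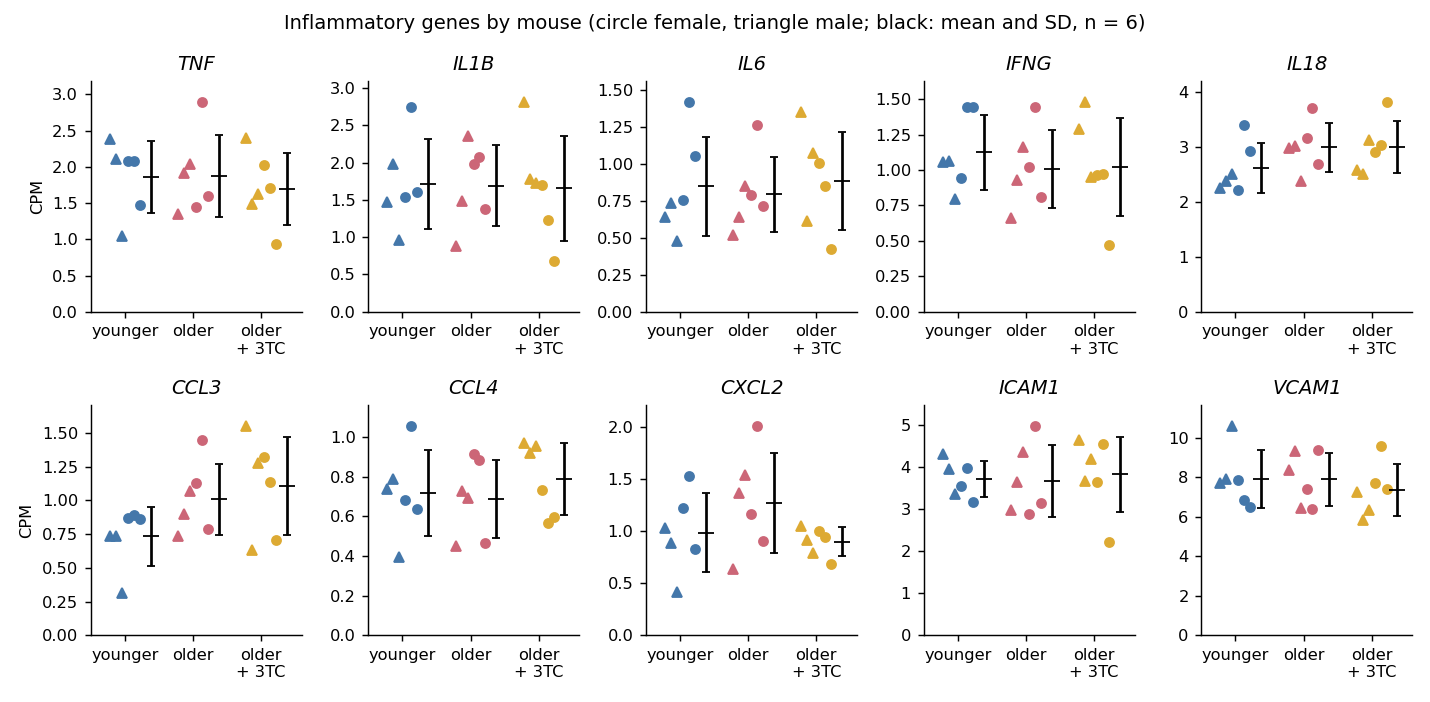
CPM of each of the 10 genes by mouse (vertical axes start at 0), with circles for females, triangles for males, and the mean and SD of 6 mice in black. In every panel the 3 groups overlap, and in 3TC-treated mice CXCL2 stayed between 0.683 and 1.05 CPM.

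Over the 10 genes, edgeR called 0 in older against younger mice, where 0.0119% of all 16774 genes and TEs were called (2 features), 0 in 3TC-treated against older mice, where 0% were called, and 0 in 3TC-treated against younger mice, where 0.0119% were called. At an unadjusted p under 0.05 these numbers were 0, 0 and 1 of the 10 and 67, 194 and 288 of the 16774, and DESeq2 also called 0 in each comparison. With age 4 genes were above 0 and 6 below, their median log2 fold change being -0.015 against -0.008 over all genes, and with 3TC 6 were above and 4 below, with medians of 0.015 and 0.008. The intervals allow for sizable differences: the widest with age, that of IL6, ran from -0.71 to 0.53, and the narrowest, that of VCAM1, from -0.29 to 0.28. With YM1 and CFO2 left out, 0 genes were called and the median with age was -0.19, and that of the tissue-restricted genes -0.26. With the tissue-restricted genes as a term in the fit, CCL3 had 0.44 with age and 0.60 in 3TC-treated against younger mice (adjusted p = 0.999 and 0.331, edgeR).

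**Figure D5:**
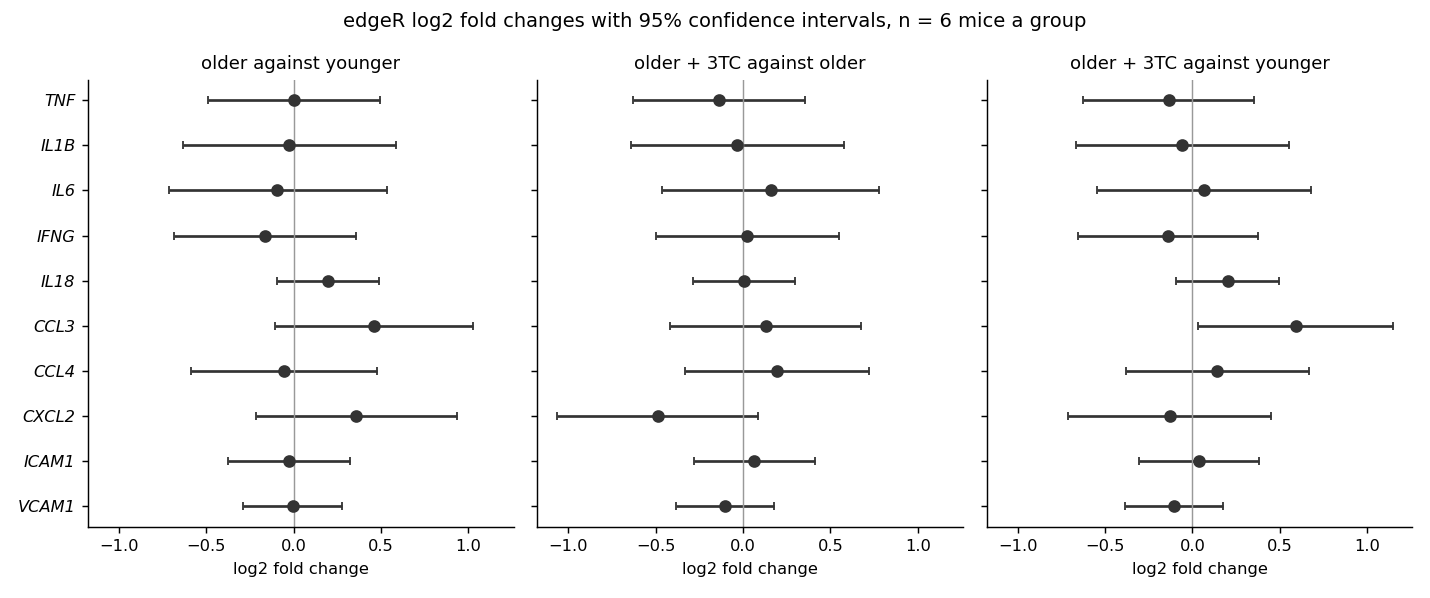
Log2 fold changes of the 10 genes from edgeR in the 3 comparisons (points) with 95% confidence intervals (bars), 6 mice a group. All intervals include 0 except that of CCL3 in 3TC-treated against younger mice (0.03 to 1.15), whose adjusted p was 1.

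The response to 3TC was also compared between the sexes, as an interaction term. No gene of the 10 was called, where 0% of all genes and TEs were called for the sex difference of aging and 0% for that of 3TC, with 0 of the 10 at an unadjusted p under 0.05 in either, against 32 of 16774 features for aging and 1292 for 3TC. Without CMO1, and likewise without CFO1, 3 of the 10 were below 0.05 for 3TC, against 2562 and 2679 of all features, with 0 called. IL1B had the largest difference in the 3TC response, 1.02 on the log2 scale (male minus female, standard error 0.55, adjusted p = 0.447, edgeR), its mean log2 CPM being 0.48 higher in treated than in untreated older males and -0.64 in females. IFNG (0.88), CCL4 (0.86) and IL6 (0.85) followed. The tissue-restricted genes moved likewise, by 0.33 in males and -0.40 in females, a difference of 0.73, and with them as a term the values were 0.19 for IL1B, 0.32 for IFNG, 0.36 for CCL4 and 0.04 for IL6. That term turned the sign for CXCL2 (0.27 to -0.59), TNF (0.39 to -0.46), CCL3 (0.44 to -0.30) and ICAM1 (0.26 to -0.24), so that CXCL2 and TNF were then the largest in size, with 0 of the 10 called and adjusted p of 0.807 or more (edgeR).

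The other genes of these pathways gave 0 calls as well. With age, 23 of 45 other cytokines, 21 of 29 other chemokines, 18 of 25 receptors and decoys, 11 of 21 other adhesion genes and 14 of 30 genes of NF-κB, inflammasome and JAK-STAT signaling had log2 fold changes above 0, with medians from -0.01 to 0.08. Without YM1 and CFO2 these counts were 8, 10, 10, 7 and 12. With 3TC the counts above 0 were 19, 11, 7, 15 and 12, and without those mice 28, 17, 15, 16 and 19. Over all 15635 genes, 7257 were above 0 with age and 8350 with 3TC. The 75 tissue-restricted genes moved likewise, with 48 above 0 with age and 29 with 3TC. Without YM1 and CFO2 these were 10 and 64, so such counts are not particular to the pathway lists. IFNGR1, the ligand-binding chain of the IFN-γ receptor, had the smallest p of these lists with age, with log2 fold changes of 0.25 with age (standard error 0.09, adjusted p = 1, edgeR) and -0.19 with 3TC (adjusted p = 1, edgeR), and the comparisons share the older mice. SPP1 (osteopontin, a cytokine of phagocytes) had 0.63 with 3TC (adjusted p = 1, edgeR), and PODXL, a sialomucin of endothelium, 0.24 (adjusted p = 1, edgeR). Microglia markers had 14 of 15 log2 fold changes above 0 with age (median 0.15, 0 called), also without YM1 and CFO2, while 8 of these 15 were called with a negative r to the trace amine receptor genes. Such a negative call was made for 5889 of all 16774 genes and TEs. Choroid plexus markers had 0 of 11 above 0 with 3TC (median -0.47, 0 called), and their part in the values of the 10 genes was not tested beyond a fit with them as a term, which called 0 of the 10.

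The genes most like the 4 most densely counted ones, by Pearson r of log2 CPM over the 18 mice, also differed in their relation to the silent genes. For TNF these were STAP2 (r = 0.964), DNAH2, a dynein heavy chain of cilia (0.962), and KLHL30 (0.960), which had r = 0.893, 0.945 and 0.903 with the tissue-restricted genes. For CCL4 they were TBC1D31 (0.918), SLC38A4, an amino acid transporter (0.909), and KIF18A, a mitotic kinesin (0.908), which had 0.838, 0.937 and 0.901. For CCL3 they were PRP2 (0.878), NANOS3, a germ cell RNA-binding protein (0.862), and S100A9, a calprotectin subunit of neutrophils (0.862), with 0.714, 0.827 and 0.647. For IL18 they were UPRT (0.839), QSER1 (0.820) and HDX (0.812), with 0.022, -0.293 and -0.101. These are descriptions over 18 shared libraries.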

How the data were processed

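The authors aligned hippocampus reads with STAR to mm10, counted TEs with TEtranscripts and deposited whole-number counts per gene and TE, not normalized. Versions and the gene annotation are not given in the sources used here. Groups came from the sample labels, and the TEs that share a name with a gene were renamed. Every per-sample column was used. The main test was edgeR 4.0.16 (R 4.3.3, TMM factors, quasi-likelihood fit of the 3 groups together) on features averaging over 10 counts, 15635 genes and 1139 TEs, with Benjamini-Hochberg adjustment over all 16774 and a threshold of 0.05. DESeq2 1.42.0, other scalings, filters and terms, and leaving out each mouse were alternatives. Exon and coding lengths came from GENCODE vM21 (GRCm38, the mm10 assembly), which matched 15587 of 15644 genes by symbol. Silent genes were to be sensory receptor genes, but the table held 5, all trace amine receptors, so 75 of 83 listed tissue-restricted genes, planned as an alternative, are given beside them. Keratin-associated genes, coding length, the TE share and its check with CPM of gene counts, a tissue-restricted term and leaving out YM1 and CFO2 together were added after seeing the data. The members and lists were chosen with earlier results of these data known. Named were the 10 members, up to 3 genes a list with the smallest p or the highest level, not all of which are described, and the 3 genes most like each of the 4 most densely counted members. INS1, CSN2, CD3E, MPO, DDX3Y and the microglia markers serve as examples and were chosen with their values known. Replicates are separate mice, and every one of 45 pairs within a group differed beyond counting noise (chi-square divided by its degrees of freedom 9.38 or more). The scripts were tested on simulated data.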

Additional observations from a re-analysis of the deposited data

Results flagged for a closer look

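Of 30 groups of 6 mice, each gene in each group, 2 held a mouse far from the other 5. CCL3 in younger mice was 0.314 CPM in YM1 against 0.737 to 0.890 in the others, a gap of 0.819 of the whole range on the log2 scale. ICAM1 in 3TC-treated mice was 2.22 CPM in DFO5 against 3.64 to 4.63 in the others, a gap of 0.674 of the range. Chance gives such a gap in about 1 in 20 groups. YM1 and DFO5 were also the mice with the lowest TE shares, 63.4% and 65.9%, and the lowest tissue-restricted genes in their groups, and the part of these in the gaps was not tested.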

How the results depend on the processing

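No alternative called any of the 10 genes in any comparison, whether DESeq2, another scaling, filter, feature set or term, or leaving out 1 of the 18 mice. Signs and sizes did move: 30 of 375 log2 fold changes changed sign under an alternative and 53 of 540 when 1 mouse was left out, with 0 called and the largest of those values being 0.165 in size in the reported fit (IFNG with age). The cause was not tested. For TNF with age the value was -0.005 by DESeq2, -0.077 with total counts, -0.11 with the silent receptor genes as a term, -0.044 with the tissue-restricted genes as a term and -0.29 without YM1 and CFO2. For VCAM1 with age it was 0.001 with factors from genes only and 0.001 with genes only, 0.031 and 0.009 with those terms, and 0.15 without YM1 and CFO2. For IL18 with 3TC it was -0.01 with factors from genes only and -0.01 with genes only, -0.001 with 2 groups only and -0.03 with choroid plexus markers as a term, a term that gave 0.003 for IL1B with age and -0.058 for IFNG with 3TC. In 3TC-treated against younger mice ICAM1 had -0.023 with total counts and -0.035 with the silent receptor term, and IL6 -0.014 with that term and -0.06 without YM1 and CFO2, where TNF and IL1B with 3TC had 0.025 and 0.032.

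The labels number the mice, but do not say that equal numbers mark a litter or batch, and the deviations of 7 same-numbered pairs correlated from -0.55 to 0.34, so the mice were not taken as paired. With sex and label number as a replicate block, 0 of the 10 genes were called in each comparison. A mouse that shares sex and number with no other, such as YM8 or CMO6, adds nothing to a difference in this fit. DMO1 and CMO1 were the only same-numbered pair of a treated and an untreated older mouse, so this fit is a weak check. The signs that changed in this block were those of IL1B (0.32), IFNG (0.039), CCL4 (0.19) and ICAM1 (0.15) with age, ICAM1 (-0.088) with 3TC, and IL1B (0.11), IFNG (0.16) and CXCL2 (0.027) in 3TC-treated against younger mice. Sizes moved too, by more than 0.2 in 14 of 30 values: with age TNF went from 0.003 to 0.37, CXCL2 from 0.36 to 0.80 and CCL3 from 0.46 to 0.69, with 3TC TNF went from -0.14 to -0.41 and CXCL2 from -0.49 to -0.77, and VCAM1 went from -0.11 to -0.34 in 3TC-treated against younger mice. Without YM1 and CFO2, 6 of 30 values moved by more than 0.2, the most for CXCL2 with age (0.36 to 0.016), and no other alternative but leaving out a mouse moved a value by more than 0.128.

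Over the fits that lacked 1 mouse each, the values with age ran from -0.26 to 0.11 for IL6, -0.16 to 0.083 for TNF, -0.15 to 0.16 for IL1B, -0.19 to 0.086 for CCL4, -0.13 to 0.037 for ICAM1 and -0.06 to 0.092 for VCAM1. With 3TC they ran from -0.26 to 0.025 for TNF, -0.24 to 0.13 for IL1B, -0.11 to 0.18 for IFNG and -0.078 to 0.073 for IL18. In 3TC-treated against younger mice they ran from -0.083 to 0.27 for IL6, -0.27 to 0.13 for IL1B, -0.28 to 0.007 for IFNG, -0.31 to 0.034 for CXCL2 and -0.024 to 0.15 for ICAM1. The other genes kept their sign, among them CCL3 with age (0.29 to 0.54) and CXCL2 with 3TC (-0.64 to -0.31).

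The number of genes above the 95th percentile of the silent receptor genes in all 18 mice was 1 (IL18). It was 0 with the tissue-restricted genes, 3 over the median of the silent receptor genes and 5 without division by length. Per kb of coding sequence, which left the level of the silent receptor genes nearly unchanged, it was 9. It was 0 per kb of coding sequence with the tissue-restricted genes. Mean counts were about 29 to 71 in CCL4, IL6, CCL3, CXCL2, IFNG, IL1B and TNF, and the part of counting error in their spread was not tested. IL6, IFNG, CCL3, CCL4 and CXCL2 could not be fitted under the filter of a mean count above 50.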

Other observations

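In each group, most of the 10 genes had the same extreme mice as the tissue-restricted genes. The mouse with the lowest tissue-restricted genes was also the lowest for 7 of the 10 genes in younger, 7 in older and 6 in 3TC-treated mice, and the mouse with the highest was also the highest for 7 in each group. These matches largely follow from the r of the 10 genes with that list and are no separate result. The share of all genes and TEs with the same extreme mice was not counted. Of all genes and TEs, 43.2% were called with a positive r to that list. Between the 8 genes other than IL18 and VCAM1, r of log2 CPM over 18 mice ran from 0.355 to 0.845 (median 0.650) over 28 pairs, and was highest for IL1B with IFNG. The lists of other cytokines, other chemokines, receptors and decoys, and other adhesion genes had the same lowest and highest mice as the tissue-restricted genes in each group. So did the lists of cells that are rare in a healthy hippocampus. The mean log2 CPM of T and NK cell markers was 0.18 in YM1 and 1.48 in YF3, 0.49 in CMO6 and 1.65 in CFO2, and 0.30 in DFO5 and 1.52 in DMO5. Border macrophage markers, 6 of 6, and neutrophil markers, 8 of 8, were called with a positive r to the trace amine receptor genes, as were 13 of 13 T and NK cell markers, 35 of 45 other cytokines and 24 of 29 other chemokines, where 41.6% of all genes and TEs were. Hippocampal neuron markers had 0 of 12 and microglia markers 1 of 15 called with a positive r, and 7 and 8 with a negative one. Of all 16774 genes and TEs, 5889 were called with a negative r.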
